A study of Mus musculus with 13 samples.

Results

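The genes described here are the AP-1 subunits Fos, Fosb, Fosl1, Fosl2, Jun, Junb and Jund, the related factor Atf3, and the immediate early genes Egr1 and Ier2. They were taken by symbol: 10 genes of the 24054 in the count tables, all listed there. RNA of mouse small intestine was sequenced in 13 libraries of 6 groups, either from whole organoids (3-dimensional cultures grown from crypts) or from sorted intestinal stem cells (ISCs). All mice were adult and received 2 doses of 1 mg tamoxifen, which activates CreERT2 and so deletes the floxed tumour suppressor gene Apc in the cells that carry it. Ileal crypts were plated for organoids at 10 days post-injection (dpi), and the labels give no time in culture. The 3 organoid groups had 2 libraries each. They were Sec-Cre Apc-null (Atoh1CreERT2;Apcfl/fl;Rosa26tdTomato, with Cre driven in secretory cells), ISC-Cre Apc-null (Lgr5eGFP-CreERT2;Apcfl/fl;Rosa26tdTomato, with Cre driven in stem cells) and WT (genotype given only as WT). The 3 ISC groups were ileal Sec-Cre Apc-null at 21 dpi (Atoh1CreERT2;Apcfl/fl;Lgr5DTR-GFP;Rosa26tdTomato, 2 libraries), duodenal ISC-Cre Apc-null at 14 dpi (Lgr5eGFP-CreERT2;Apcfl/fl;Rosa26tdTomato, 3 libraries) and ileal WT at 21 dpi (Apcfl/fl;Lgr5DTR-GFP;Rosa26tdTomato without Cre, 2 libraries). Both kinds of ileal ISC thus carried floxed Apc and the Lgr5DTR-GFP allele. Per the labels, epithelium was digested for 30 min at 37 °C, in TrypLE Select for the samples named Lgr5_ApcKO and in collagenase for the others, ISCs were then sorted, and organoids were collected whole for RNA. That protocol names only the duodenum, although other labels place the organoid crypts and 4 ISC libraries in the ileum, and it does not say whether organoids went through the enzyme step; regions are given here as those other labels state them. Whether the libraries of a group came from different mice or cultures is not stated, and the p-values therefore cover just the library-to-library spread, which may be technical.

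AP-1 is a dimer of basic leucine zipper proteins: Jun proteins pair with each other or with Fos proteins, and the pair binds short palindromic sites in promoters and enhancers. Fos, Fosb, Jun, Junb, Atf3, Egr1 and Ier2 are immediate early genes, whose transcription rises quickly and briefly after growth factors, stress or tissue handling and needs no new protein synthesis, while Jund and Fosl2 are usually transcribed more steadily. In intestinal epithelium AP-1 is known for roles in crypt proliferation, regeneration and tumours driven by Wnt signalling.

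Promoter windows from RefSeq (GRCm38.p6, 250 bases before to 50 after a gene's start) were read for 7 of the 10 genes: Fos, Fosb, Fosl2, Jun, Junb, Jund and Atf3. The RefSeq start matched the GENCODE gene start in Fos and Jun, but lay 1210 bases before it in Jund and 34706 bases inside the gene in Atf3, so those windows belong to other starts. The windows of Fos, Jun and Atf3 are shown as examples from the Fos, Jun and ATF families, and each holds, as does that of Jund, a site type that AP-1 or ATF/CREB dimers are known to bind. Capitals mark TGACGT, the core of the cyclic AMP response element (read on either strand), or the spaced AP-1 type TGANNTCA. No window held both motifs.
Fos, chr12:85473640-85473939 (+): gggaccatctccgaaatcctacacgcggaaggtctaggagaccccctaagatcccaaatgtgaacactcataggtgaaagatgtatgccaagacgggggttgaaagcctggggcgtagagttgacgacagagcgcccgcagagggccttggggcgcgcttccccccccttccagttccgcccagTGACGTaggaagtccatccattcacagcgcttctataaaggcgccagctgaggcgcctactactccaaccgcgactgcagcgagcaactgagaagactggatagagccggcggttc
Jun, chr4:95052173-95052472 (-): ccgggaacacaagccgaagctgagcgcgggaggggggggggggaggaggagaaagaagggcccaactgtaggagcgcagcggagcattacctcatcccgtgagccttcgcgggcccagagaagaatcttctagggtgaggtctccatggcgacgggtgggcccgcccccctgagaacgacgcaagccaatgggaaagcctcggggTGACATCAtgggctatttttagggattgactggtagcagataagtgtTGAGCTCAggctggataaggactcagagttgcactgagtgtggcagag
Atf3, chr1:191183284-191183583 (-): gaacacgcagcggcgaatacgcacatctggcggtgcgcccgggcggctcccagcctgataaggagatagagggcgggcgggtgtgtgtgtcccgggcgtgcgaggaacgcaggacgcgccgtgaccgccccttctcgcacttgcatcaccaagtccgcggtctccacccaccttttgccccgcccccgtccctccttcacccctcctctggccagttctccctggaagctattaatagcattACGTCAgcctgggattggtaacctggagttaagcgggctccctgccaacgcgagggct
TGACGT lay at -66 to -61 from the start in Fos and, on the other strand, at -8 to -3 in Atf3. It occurred in 2 of the 7 windows and in 7.51% of 32851 promoter windows of the same length. TGANNTCA occurred at 2 places in Jun (TGACATCA at -45 to -38 and TGAGCTCA at 2 to 9) and 1 in Jund (TGAAATCA at -61 to -54), in 2 of 7 windows against 14.1% of all. The classical AP-1 site TGANTCA was in 0 of the 7 windows and 7.81% of all, and the CArG box bound by serum response factor was in 0 of the 7 and 1.63% of all. Windows of Fosl1, Egr1 and Ier2 were not read, so the counts of 0 do not cover those genes. These counts describe letters in 300 bases and carry no information on binding.

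Library totals were 13631423 to 22182702 gene counts in organoids and 11524335 to 45516228 in ISCs. Apc itself was at 185 to 243 CPM (read counts scaled to library size, with TMM factors over all 13 libraries) in Apc-null organoids and 139 to 157 CPM in WT organoids, and at 48.2 to 453 CPM in Apc-null ISCs and 114 to 124 CPM in WT ISCs. Counts over the whole gene do not test the deletion of a floxed part. Of the defining ISC markers, Lgr5 was at 205.3 to 225.5 CPM in WT organoids and 61.4 to 97.7 CPM in WT ISCs. Sec-Cre organoids held 123.9 to 280.8 CPM and Sec-Cre ISCs 51.9 to 69.4 CPM, so Lgr5 was lower in sorted cells in both ileal pairs. ISC-Cre organoids held 80.0 to 102.6 CPM and duodenal ISCs 221.9 to 248.0 CPM. Olfm4 was at 44.1 to 129 CPM in Apc-null and 1605 to 4643 CPM in WT organoids. In ISCs Olfm4 was at 302 to 1258 CPM (Sec-Cre), 70.0 to 101.5 CPM (duodenal) and 3004 to 3608 CPM (WT). Ileal Sec-Cre ISC replicate 1 stood apart, with 57.0% unmapped reads and 25.1% of its counts in Paneth cell markers, and duodenal ISC replicate 3 had 5.26% of its counts in the ribosomal RNA gene Rn45s. Enterocyte markers summed to 23410 and 45070 CPM in the Sec-Cre ISCs, against 1423 and 1502 CPM in WT ISCs. The 3 duodenal libraries were strand-specific in their counts and the other 10 were not. As labelled, region, time point, enzyme and strandedness therefore differed together between the duodenal ISCs and every other group and cannot be told apart from genotype there.

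Set against sorted ISCs, organoids held far less RNA of most of these genes. Averaged over the 3 pairs matched by Cre driver and Apc status (the Lgr5DTR-GFP allele of the ileal ISCs is not in the organoids' labels), 9 of the 10 genes were lower in organoids at an adjusted p under 0.05 (edgeR's quasi-likelihood test, Benjamini-Hochberg over all genes), while 39.9% of 15208 genes passed in either direction and 19.3% passed as lower. The 9 include Fosl1, whose call rests on 0 reads in WT organoids and whose counts depend on how overlapping reads were assigned. The median log2 difference of the 10 was -2.64, or -2.35 with Fosl1 at its bound (given with that gene), against 0.06 over all genes. For 7 genes (Fos, Fosb, Jun, Junb, Atf3, Egr1 and Ier2) every organoid library lay below every ISC library, which held for 1.95% of all genes tested. Without the 2 libraries that stood apart, 10 genes were called (the same 9 lower, and Fosl2 higher; 52.3% of all genes passed) and the same 7 separated. Scaling by total counts in place of TMM moved the median over all genes from 0.06 to 0.36 and left 5 genes separated, with Jun and Junb overlapping. In bulk RNA, fewer cells of a type and less RNA per cell cannot be told apart, and neither can culture, dissociation and sorting.

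**Figure D1:**
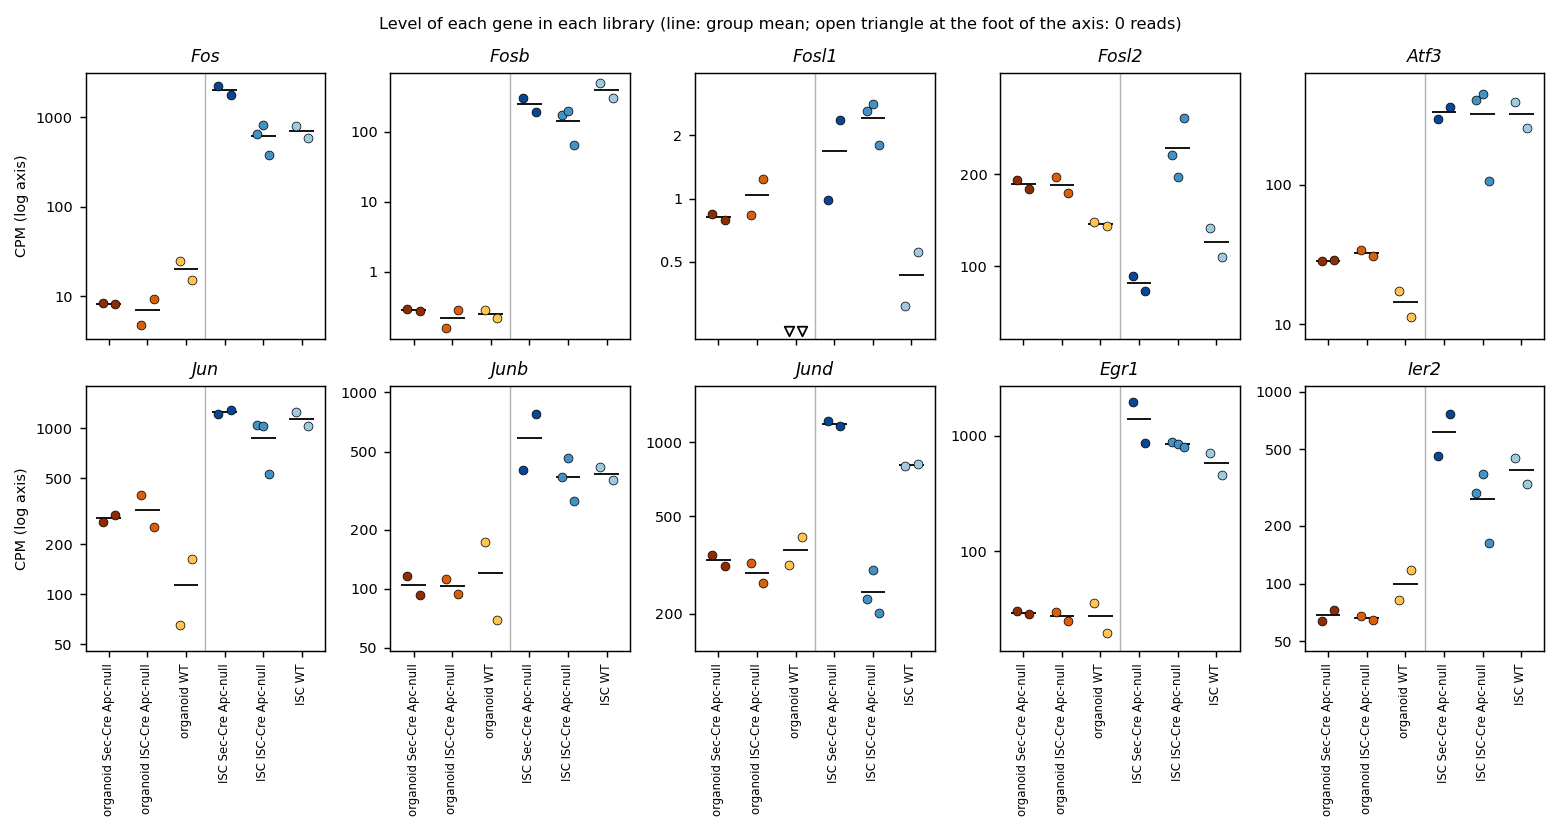
CPM of each of the 10 genes (log axes, 1 panel a gene) in each library, with organoid groups left of the line and ISC groups right of it; points are libraries and bars group means. Organoids form a lower block for Fos, Fosb, Atf3, Jun, Junb, Egr1 and Ier2, Fosl2 and Jund overlap, and Fosl1 had 0 reads in both WT organoids (open triangles).

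Fos, the founding partner of Jun in AP-1, measured 8.44 and 8.20 CPM in the Sec-Cre organoids, 4.84 and 9.33 CPM in the ISC-Cre organoids and 25.0 and 15.2 CPM in the WT organoids. Sorted ISCs held 2214 and 1787 CPM (Sec-Cre), 650, 829 and 374 CPM (duodenal ISC-Cre) and 806 and 583 CPM (WT). The lowest ISC library thus held many times the Fos RNA of the highest organoid library, and the mean difference was -6.49 ± 0.30 log2 CPM (SE, adjusted p = 2.3e-07), 89.9-fold lower in organoids. Fosb, a close relative of Fos, was close to 0 in organoids, at 0.160 to 0.295 CPM in the 6 organoid libraries (median 0.279), from 4 to 7 reads each, against 64.7 to 489 CPM in the 7 ISC libraries (median 196). Its difference, -9.89 ± 0.40 log2 CPM (adjusted p = 1.29e-07), was the largest of the 10 genes. With so few reads in organoids the size of that difference is uncertain. Fosb lies on chromosome 7 (19302696 to 19310051, GRCm38).

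Egr1, a zinc finger factor induced through serum response factor, was at 19.5 to 35.4 CPM in organoids (median 28.9) and 454.5 to 1953 CPM in ISCs (median 857). The groups did not overlap, and the mean difference was -4.99 ± 0.26 log2 CPM (adjusted p = 3.07e-07). Atf3, a stress-induced bZIP factor, was at 11.3 to 33.9 CPM in organoids (median 28.7) and 107.5 to 452 CPM in ISCs (median 365), a difference of -3.78 ± 0.32 log2 CPM (adjusted p = 5.2e-06). Its lowest ISC value came from duodenal replicate 3. Ier2, a small nuclear protein of the same early wave, was at 63.8 to 117 CPM in organoids and 162 to 769 CPM in ISCs (-2.40 ± 0.22 log2 CPM, adjusted p = 9.39e-06).

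Among the Jun proteins, the obligate partners of Fos, differences were smaller. Jun was at 65.0 to 395 CPM in organoids (median 263) and 530 to 1290 CPM in ISCs (median 1038), and differed by -2.30 ± 0.26 log2 CPM (adjusted p = 3.56e-05). Junb, often an antagonist of Jun in growth control, was at 68.9 to 173 CPM in organoids (median 103) and 279 to 774 CPM in ISCs (median 404), with -2.01 ± 0.25 log2 CPM (adjusted p = 7.01e-05). Jund, the Jun protein linked to quiescence and protection from oxidative stress, differed least among the genes called, by -0.91 ± 0.15 log2 CPM (adjusted p = 0.000473). That is a mean over pairs, and in the ISC-Cre pair Jund was not lower in organoids (given with the pairs below). It was at 267 to 409 CPM in organoids and 202 to 1216 CPM in ISCs, and the ranges overlapped because the 3 duodenal ISC libraries lay at 231, 301 and 202 CPM. The call of Jund was lost when libraries were scaled by total counts (-0.60 log2 CPM, adjusted p = 0.0661). Jund overlaps the antisense gene Gm11175, with 50.1% of its 31-base words shared, so its counts outside the strand-specific libraries are uncertain.

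Fosl2 and Fosl1 are Fos proteins that lack the strong activation domain of Fos. Fosl2 was at 135 to 196 CPM in organoids (median 176) and 82.7 to 306 CPM in ISCs (median 133), and the mean difference of 0.29 ± 0.13 log2 CPM was not called (adjusted p = 0.107). It passed as higher in organoids with total counts, without duodenal ISC replicate 3, and without the 2 libraries that stood apart (0.35 log2 CPM, adjusted p = 0.00823). Fosl1, also called Fra-1, was rare everywhere, at 0 to 1.24 CPM in organoids and 0.310 to 2.81 CPM in ISCs. It had 0 reads in both WT organoid libraries, against 5 and 11 reads in WT ISCs, and with 3 reads set over the WT organoids it was at least 5.46-fold lower there in the counts over both strands. Its fitted mean difference of -2.88 ± 0.60 log2 CPM (adjusted p = 0.003) rests on those zeros and is no bound. Fosl1 lies on chromosome 19 (5447547 to 5455946, GRCm38) across the antisense gene Ccdc85b, and reads in the shared part were not assigned: in the duodenal libraries the count was 81, 92 and 38 over both strands but 446, 445 and 194 on the sense strand. The 2 single-strand columns of Fosl1 together held 18 and 23 reads in WT organoids and 33 and 11 reads in WT ISCs, a ratio of 0.911 of the pooled CPM. The bound therefore depends on how reads of the overlap were assigned, and reads of the 2 genes cannot be told apart in libraries without strand. In the Sec-Cre pair the same columns held 195 and 125 reads in organoids and 5 and 161 reads in ISCs. The 161 reads came from the deepest library (45516228 gene counts), so by these columns Fosl1 was not lower in Sec-Cre organoids. Sense-strand counts in the duodenal libraries raised only the ISC side of the ISC-Cre pair, as organoid libraries were still counted over both strands. The Fosl1 difference was then -3.57 log2 CPM (adjusted p = 0.00332), against -1.21 log2 CPM (adjusted p = 0.29) with both strands counted in all libraries. The larger value mixes 2 ways of counting and is not a like comparison.

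The 3 matched pairs share no library, so each gives the contrast separately. In Sec-Cre Apc-null samples 8 of the 10 genes were lower in organoids and 1, Fosl2, was higher (48.6% of genes passed in either direction and 22.4% as lower). In ISC-Cre Apc-null samples, with ileal organoids set against duodenal ISCs, 7 were lower (12.1% and 6.08%), and in WT samples 8 were lower (3.87% and 1.89%). Fos was -7.91 ± 0.55 log2 CPM in the Sec-Cre pair, -6.45 ± 0.51 in the ISC-Cre pair and -5.11 ± 0.48 in the WT pair. Fosb, Egr1, Atf3, Jun and Ier2 also passed in all 3 pairs. Jund was lower in the Sec-Cre and WT pairs but not called in the ISC-Cre pair (0.27 ± 0.23 log2 CPM, adjusted p = 0.514). Fosl1 was called only in the WT pair, where WT organoids had 0 reads (adjusted p = 0.242 in Sec-Cre and 0.29 in ISC-Cre). Junb was not called in WT samples (-1.68 ± 0.43 log2 CPM, adjusted p = 0.0503), where WT organoid replicate 1 was at 173 CPM and replicate 2 at 68.9 CPM. Jun in the ISC-Cre pair was a weak call (-1.42 ± 0.41 log2 CPM, adjusted p = 0.0424) and was lost in 8 of the 13 fits that left out 1 library. The ISC-Cre count was lower in those 8 fits. It was lowest without ISC-Cre organoid replicate 2, where Junb and Ier2 were lost as well. That was also the alternative with the fewest calls over all genes. Without ISC-Cre organoid replicate 1, Junb was lost beside Jun. Among fits that left out 1 library, the WT count fell furthest without WT organoid replicate 2 or without WT ISC replicate 1. In both of those WT fits the calls lost were Fosl1, Ier2 and Jund. Most of the other such fits also gave a lower WT count, with Fosl1 lost and in most cases Jund too. Fos, Fosb, Egr1 and Atf3 were called lower in organoids in each pair under all 21 alternatives tried.

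**Figure D2:**
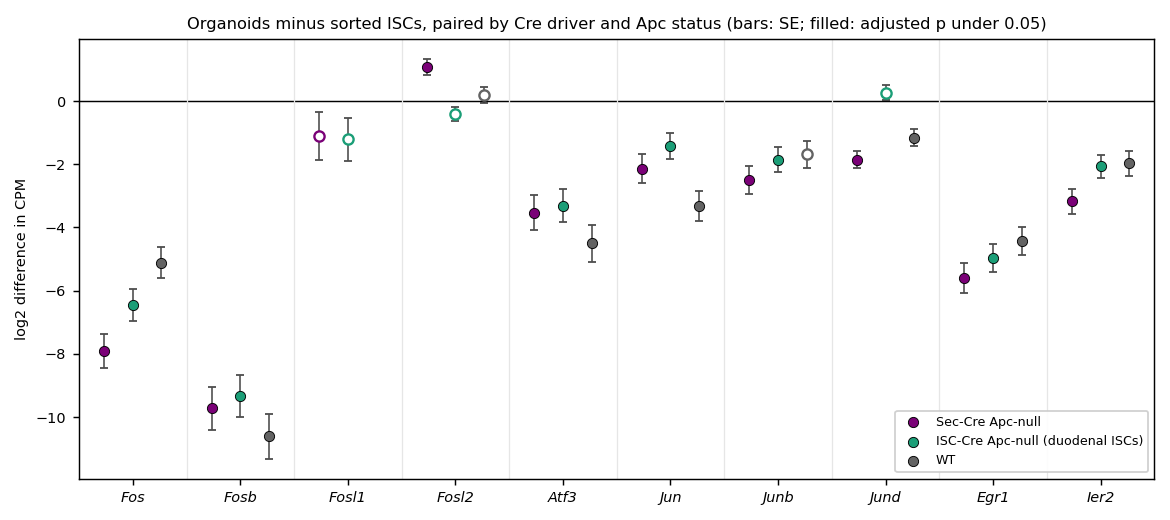
Log2 difference in CPM between organoids and ISCs, paired by Cre driver and Apc status (y), for each gene (x), with SE bars; filled points passed an adjusted p under 0.05. Fos, Fosb, Egr1 and Atf3 lie below -3 in all 3 pairs, Fosl2 is above 0 in Sec-Cre samples, and Fosl1 in WT samples is not drawn because WT organoids had 0 reads.

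Per kilobase of exon, the make-up of the Fos family turned over between the materials while that of the Jun family changed less. The summed level of Fos, Fosb, Fosl1 and Fosl2 was 20.5 to 25.1 RPKM (CPM per kilobase of exon) in organoids and 202 to 999 RPKM in ISCs. Fosl2 supplied 57.5% to 89.0% of that sum in organoids and 0.962% to 15.6% in ISCs, whereas Fos supplied 9.03% to 42.4% in organoids and 78.8% to 94.9% in ISCs. Fosb was at 0.112% to 0.203% in organoids and 3.87% to 18% in ISCs. The shares of all 3 genes were separate between the materials, while the level of Fosl2 itself overlapped. The Jun family summed to 280 to 365 RPKM in organoids and 408 to 1441 RPKM in ISCs. Jund supplied 52.8% to 75.2% of it in organoids, 45.5% to 56.6% in ileal ISCs and 22.1% to 29.6% in duodenal ISCs, where Jun supplied the largest part (40.7% to 52.1%).

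**Figure D3:**
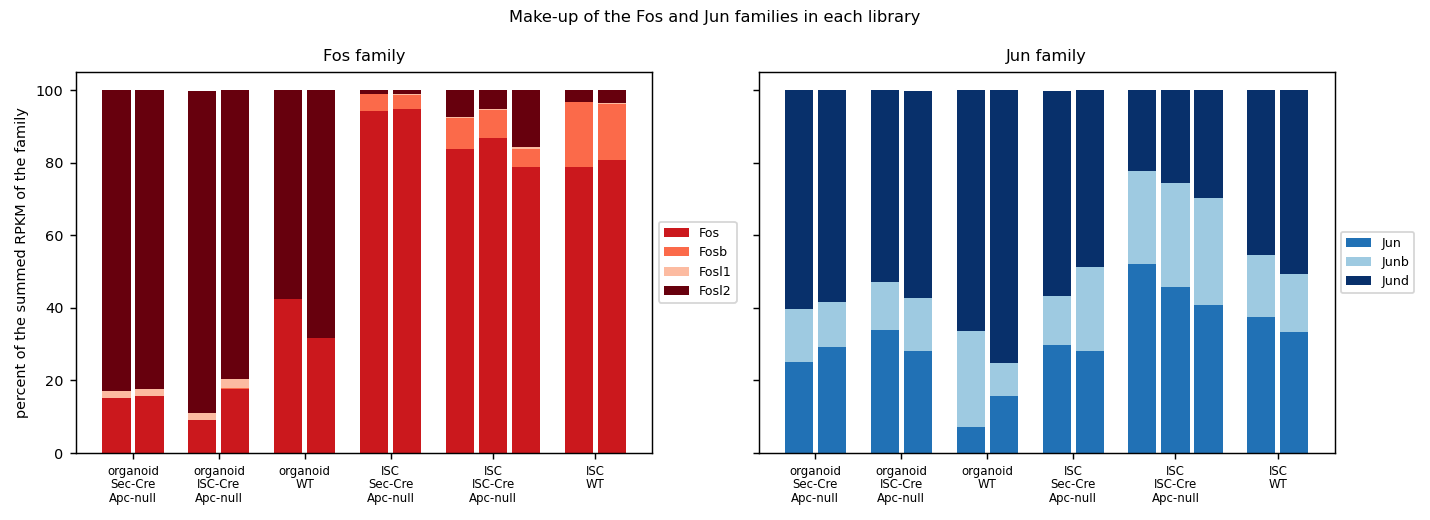
Share of each member in the summed RPKM of the Fos family (left) and of the Jun family (right), 1 bar a library, organoids left of ISCs. Fosl2 fills 57.5% to 89.0% of the Fos family bars in organoids and Fos 78.8% to 94.9% in ISCs, and Jund is the largest Jun part in all organoid libraries.

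Within organoids, Apc-null samples had some of these genes higher and others lower than WT samples. Against WT organoids, Sec-Cre Apc-null organoids had 3 genes higher (Fosl1, Jun and Atf3) and 2 lower (Fos and Ier2) of the 9 tested, where 33% of 14208 genes passed. ISC-Cre Apc-null organoids had 4 higher (the same 3 and Fosl2) and 2 lower (Fos and Ier2), where 37.8% passed. Both comparisons share the WT organoids. Fosb did not pass the filter on low counts.

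Fos, at 8.32 ± 0.17 CPM in Sec-Cre, 7.08 ± 3.17 CPM in ISC-Cre and 20.1 ± 6.9 CPM in WT organoids (SD, n = 2 each), differed from WT by -1.32 ± 0.37 log2 CPM in Sec-Cre (adjusted p = 0.0309) and was 2.92-fold lower in ISC-Cre organoids (adjusted p = 0.0156). Jun ran the other way, at 286 ± 17 CPM, 323 ± 101 CPM and 113 ± 69 CPM in the same groups, 2.43-fold higher in Sec-Cre (adjusted p = 0.0429) and 2.79-fold higher in ISC-Cre organoids (adjusted p = 0.0233). All 4 Apc-null libraries were above both WT libraries for Jun, and below both for Fos and Ier2. The share of all genes that separate in this way was not counted, so the separation is given only as a description. Atf3 stood at 28.4 and 29.1 CPM in the Sec-Cre libraries, at 33.9 and 31.02 CPM in the ISC-Cre libraries and at 17.4 and 11.3 CPM in the WT libraries, a difference from WT of 0.95 ± 0.23 log2 CPM in Sec-Cre (adjusted p = 0.0185) and 1.15 ± 0.23 in ISC-Cre (adjusted p = 0.00768). Ier2 was 1.51-fold lower in Sec-Cre organoids (adjusted p = 0.0416) and 1.54-fold lower in ISC-Cre organoids (adjusted p = 0.0326).

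Fosl1 had 20 and 20 reads in Sec-Cre organoids, 21 and 26 reads in ISC-Cre organoids, and 0 and 0 reads in WT organoids. Set against 3 reads over the WT group, it was at least 9.99-fold higher in Sec-Cre (adjusted p = 0.0111) and at least 12.5-fold higher in ISC-Cre organoids (adjusted p = 0.00744) in the counts over both strands. The single-strand columns together held 195 and 125 reads in Sec-Cre, 235 and 174 reads in ISC-Cre and 18 and 23 reads in WT organoids, where the pooled CPM was 5.84-fold and 7.96-fold that of WT, so the size depends on how overlapping reads were assigned. Its antisense neighbour Ccdc85b moved with it, at 26.6 to 49.8 CPM in Apc-null and 12.1 to 18.2 CPM in WT organoids, and its part in the Fosl1 counts was not tested. Fosl2 was 1.32-fold higher in ISC-Cre organoids (adjusted p = 0.0444), and its difference of 0.38 ± 0.13 log2 CPM in Sec-Cre organoids was not called (adjusted p = 0.0555). Egr1, Junb and Jund were not called in either, with differences from WT of -0.33 to 0.04 log2 CPM. The calls rest on few libraries: without Sec-Cre organoid replicate 1, or without replicate 2, the Sec-Cre count was 0, and without ISC-Cre organoid replicate 1 the ISC-Cre count was 1. Without WT organoid replicate 1, without ISC-Cre organoid replicate 1 or without ISC-Cre organoid replicate 2, the Sec-Cre count was 3. In a fit of all 13 libraries the counts were 1 and 3. In the direct comparison of Sec-Cre with ISC-Cre Apc-null organoids, edgeR called 0 of 9 genes, with 0 at an unadjusted p under 0.05 and 0 by DESeq2, where 0.0422% of genes passed. The largest of these differences was -0.36 ± 0.70 log2 CPM (Fosl1), and a p that misses the threshold does not show that the groups are alike.

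**Figure D4:**
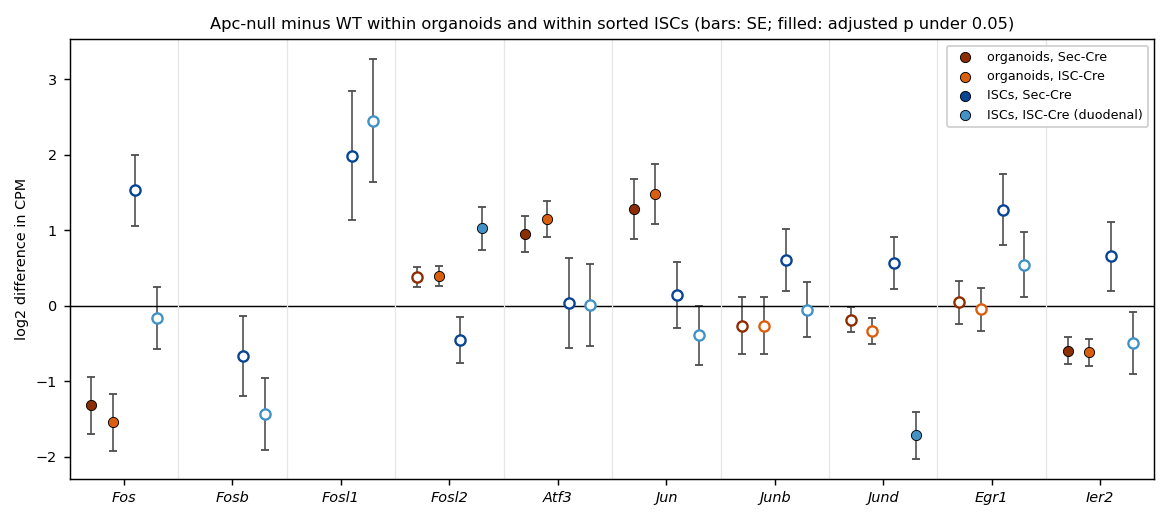
Log2 difference in CPM between Apc-null and WT samples (y) for each gene (x), within organoids (brown and orange) and within ISCs (blues), with SE bars; filled points passed an adjusted p under 0.05. In organoids Fos and Ier2 are below 0 and Atf3 and Jun above 0; in duodenal ISCs Jund is below 0 and Fosl2 above 0. Fosb in organoids was filtered out and Fosl1 in organoids is not drawn because WT organoids had 0 reads.

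Within ileal ISCs, 0 of the 10 genes were called between Sec-Cre Apc-null and WT cells by edgeR, where 16.6% of 14577 genes passed. At an unadjusted p under 0.05 there were 3 (Fos, Fosl1 and Egr1), and DESeq2 called 2 (Fos and Egr1). Fos was at 2214 and 1787 CPM in Sec-Cre and 806 and 583 CPM in WT ISCs, a difference of 1.53 ± 0.47 log2 CPM (adjusted p = 0.0566). Egr1 was at 1953 and 865 CPM in Sec-Cre and 716 and 454.5 CPM in WT ISCs (1.27 ± 0.47 log2 CPM, adjusted p = 0.0949). Without the 2 libraries that stood apart, which left 1 Sec-Cre library assumed to vary like the other groups, 5 of the 10 genes were called, where 40.4% of all genes passed in that fit. Fos (1.34 log2 CPM, adjusted p = 0.00658), Junb (0.98, adjusted p = 0.0109), Ier2 (0.95, adjusted p = 0.0215) and Fosl1 (2.39, adjusted p = 0.0355) were higher and Fosb (-1.05, adjusted p = 0.0319) was lower. Without Sec-Cre ISC replicate 2 instead, 2 genes were called, and without duodenal ISC replicate 3 there was 1. Enterocyte markers, summed above, moved with this comparison, and so did the immune markers, which summed to 46.5 and 63.2 CPM in Sec-Cre and 17.2 and 26.4 CPM in WT ISCs. Their part in these differences was not tested.

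Duodenal ISC-Cre Apc-null ISCs differed from ileal WT ISCs in 2 of the 10 genes, where 19.1% of genes passed. Fosl2 was at 231, 196 and 306 CPM in duodenal and 133 and 107 CPM in WT ISCs, 2.03-fold higher (adjusted p = 0.0388). Jund was at 231, 301 and 202 CPM in duodenal and 801 and 813 CPM in WT ISCs, 3.29-fold lower (adjusted p = 0.00686), with 98.4% to 99.2% of duodenal reads on the sense strand. Neither gene was called without WT ISC replicate 1 or without replicate 2. Without any 1 of the 3 duodenal libraries Jund alone was called, and without Sec-Cre ISC replicate 1 or replicate 2 there were 3 genes. Set against ileal Sec-Cre ISCs, the duodenal ISCs again had Fosl2 higher (2.78-fold, adjusted p = 0.00506) and Jund lower (4.86-fold, adjusted p = 0.000996), and also Fos lower (3.23-fold, adjusted p = 0.0124), where 40.8% of genes passed. That count was 5 without Sec-Cre ISC replicate 1, 5 without the 2 libraries that stood apart (53.4% of all genes passed) and 1 with total counts. These comparisons share the duodenal libraries, in which region, time point, enzyme and strandedness also differ. Jund and Fosl2 lay opposite each other across libraries, with Pearson r of -0.917 in log2 CPM over the 13 libraries and -0.978 over the 7 ISC libraries, a description of points that share groups.

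The change with Apc loss was also set between the materials, as the difference of the 2 differences. For Sec-Cre samples 2 of the 10 genes passed (26.4% of genes did). Fos differed by -1.32 ± 0.37 log2 CPM between Apc-null and WT organoids and by 1.53 ± 0.47 between Apc-null and WT ISCs, and the interaction in the fit of all libraries was -2.79 ± 0.59 (adjusted p = 0.00486). It was called in 20 of 21 alternatives, the exception being total counts (-1.84, adjusted p = 0.0757). The Fosl1 interaction rests on the 0 reads of WT organoids. For ISC-Cre samples Jund passed (1.42 ± 0.35, adjusted p = 0.0369; 5.05% of genes did), with Apc-null against WT at -0.33 ± 0.17 in organoids and -1.72 ± 0.31 in ISCs, and region and time point differ with that ISC group. Jund was not called there without any 1 of 9 libraries: the 6 organoid libraries, the 2 WT ISC libraries or duodenal ISC replicate 1. Without the 2 libraries that stood apart, the counts were 4 (41.8% of all genes were called in that fit) and 2 (14.2%).

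Other genes of the same early response were mostly lower in organoids too, in lists that are background for the 10 genes. Over all genes, 39.9% passed in either direction and 19.3% as lower in the mean of the 3 pairs. Of 24 other rapid-response transcription factors, 14 were lower and 2 higher over the mean of the 3 pairs, with a median of -1.69 log2 CPM against 0.06 over all genes. Among them Egr2, a relative of Egr1, was at 0.127 to 0.710 CPM in organoids and 16.9 to 73.9 CPM in ISCs (73.0-fold lower, adjusted p = 9.42e-07), and the orphan receptor Nr4a1 was 12.9-fold lower (adjusted p = 2.42e-06). Of 28 feedback and mRNA decay regulators, 16 were lower and 5 higher (median -0.69). Zfp36, which speeds decay of early response mRNAs, was 11.8-fold lower (adjusted p = 2.3e-07) and the MAP kinase phosphatase Dusp1 differed by -4.17 ± 0.20 log2 CPM (adjusted p = 2.81e-07).

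Over the mean of the 3 pairs, lists further from the early response did not share that direction. Of 19 other bZIP partners tested, 6 were higher and 7 lower (median 0.08), with Batf2 51.3-fold and Mafk 2.24-fold lower. Of 26 MAP kinase and serum response factor inputs, 6 were higher and 4 lower (median 0.12). Of 18 growth factor and matrix genes described as AP-1 targets, 8 were higher and 2 lower (median 0.80), including Ccnd1 (cyclin D1), 2.94-fold higher (adjusted p = 1.66e-05), and Hbegf, an EGF receptor ligand, 4.29-fold lower (adjusted p = 3.68e-05). In Apc-null against WT organoids that list had 10 higher and 1 lower of 16 in Sec-Cre, where 33% of all genes passed. It had 11 higher and 1 lower in ISC-Cre, where 37.8% passed. Plau (urokinase) was at 7.61 ± 0.28 CPM in Sec-Cre, 13.1 ± 1.8 CPM in ISC-Cre and a mean of 0.0444 CPM in WT organoids. The part of AP-1 in these differences was not tested. Of 14 heat shock genes, 6 were higher and 3 lower (median 0.13), but the pairs differed. In the WT pair 0 were higher and 3 lower (median -0.36). In the ISC-Cre pair 7 were higher and 0 lower (median 0.95), and in the Sec-Cre pair 6 were higher and 3 lower (median 0.26). Hspa1a, a stress-inducible chaperone gene whose transcripts share most of their sequence with Hspa1b and are therefore uncertain, was at 0.489 to 3.88 CPM in organoids, 7.88 and 8.36 CPM in Sec-Cre ISCs, 0.851 to 1.04 CPM in duodenal ISCs and 328 and 456 CPM in WT ISCs. Fos and Fosb, by contrast, were high in all 3 ISC groups.

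Markers of other cells moved with the contrast between materials. In the mean of the 3 pairs, 39.9% of all genes passed in either direction and 19.3% as lower. Immune markers summed to 2.46 to 10.7 CPM in organoids and 17.2 to 63.2 CPM in ISCs, with 7 of 8 tested genes lower in organoids. The T cell marker Cd3e was at 0 to 0.178 CPM in organoids and 0 to 0.0619 CPM in WT ISCs. It was at 0.0968 to 0.473 CPM in duodenal ISCs and 2.99 to 3.20 CPM in Sec-Cre ISCs. Paneth markers had 7 of 9 genes lower in organoids, enterocyte markers 10 of 10, goblet markers 6 of 8, enteroendocrine markers 5 of 9, tuft markers 6 of 6, and stromal and endothelial markers 0 of 9. ISC markers had 4 of 10 higher and 2 lower. In the WT pair, where 3.87% of all genes passed, enterocyte markers had 2 genes higher and 1 lower in organoids (median 1.41 log2 CPM), Paneth markers 0 called (median -1.33), goblet markers 3 lower (median -1.70) and immune markers 1 lower (median -5.11). The part of cell make-up in the differences was not tested.

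Over the 13 libraries, the genes whose log2 CPM most resembled Fos were Zfp36 (Pearson r = 0.983), Egr1 (0.976) and Fosb (0.974), among 9326 genes with a mean log2 CPM of at least 3. For Atf3 they were Dusp1 (0.971), Ppp1r15a (0.968) and Fosb (0.963). Those of Jund were Timm50 (0.972), Ocel1 (0.971) and Mgat2 (0.965), and those of Fosl1 were Cyth1 (0.948), Arhgef2 (0.931) and Abhd12 (0.931). No member was thus among the nearest genes listed for Jund or Fosl1, but Fosl1 lay below that level and could not be listed. Genes on X and Y and genes with provisional names, such as Gm or Rik, were also left out. These correlations are across libraries that share 6 groups and 2 materials, and are given as a description.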

How the data were processed

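Polyadenylated RNA of 13 bulk libraries was sequenced. Whole-number counts per gene were deposited by the authors, 1 table a library with a column over both strands and a column for each strand. The submitters' processing notes name STAR (version not given), DESeq2 1.22.2 (role not given) and mm10, and the annotation is not given in the sources used here. The kit is labelled non-directional, but over 90% of gene reads lay on 1 strand in the duodenal libraries. Counts over both strands were used. Summary lines that name no gene held 22.3% to 84.5% of reads and were left out.

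The members and gene lists were chosen with earlier results of these data known. Genes were filtered with filterByExpr (minimum count 10), scaled by TMM and fitted with edgeR 4.0.16 (R 4.3.3) by quasi-likelihood, with Benjamini-Hochberg adjustment over all genes of a fit and a threshold of 0.05. Organoid against ISC contrasts and interactions used all 13 libraries, Apc-null against WT organoids the 6 organoid libraries, and ISC contrasts the 7 ISC libraries. The scripts were tested on simulated data. A fitted SE is the log2 difference divided by the root of its F value. Fold bounds for groups with 0 reads use 3 counts over the group. RPKM used exon lengths of GENCODE vM21 (GRCm38), and gene pairs sharing over 20% of 31-base words were treated as uncertain. Beside the 10 members, up to 3 called genes a list with the smallest adjusted p could be named in each comparison. The alternatives were RLE factors, total counts, no filter, DESeq2 1.42.0, limma-trend (limma 3.58.1), a replicate block, sense-strand counts in duodenal libraries, only the groups compared, and leaving out each library. The fit of all 13 libraries and the fit without the 2 libraries that stood apart were added after seeing the data.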

Additional observations from a re-analysis of the deposited data

Results flagged for a closer look

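Tests of the difference between 2 effects passed for 3 results. The log2 difference of Fos between Sec-Cre Apc-null and WT samples was lower in organoids than in ISCs by an interaction of -2.79 ± 0.59 (adjusted p = 0.00486 by edgeR). All organoid Fos values in that test lay at 8.20 to 25.0 CPM and all ISC values at 583 to 2214 CPM. The same interaction for Fosl1 was 5.23 ± 1.71 (adjusted p = 0.0432), which rests on 0 reads in both WT organoid libraries and is no bound, and Fosl1 was called in 6 of the alternatives. For Jund, the difference between ISC-Cre Apc-null and WT samples was higher in organoids than in ISCs by 1.42 ± 0.35 (adjusted p = 0.0369), called in 9 of 21 alternatives. The ISC-Cre ISCs were duodenal and the organoids ileal, so region and genotype cannot be told apart in that result.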

How the results depend on the processing

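No called direction was reversed under any alternative: of 2090 member values, 129 lost and 65 gained a call. Same-numbered libraries did not deviate together (correlations of -0.147 to 0.078 over 30 pairs), so the numbers were not used as pairs. In groups of 2 libraries the deviations mirror each other, so some of the 30 values repeat others. With the replicate block, the count of members called was 3 for Sec-Cre against WT organoids, 1 for Sec-Cre against WT ISCs, 1 for duodenal against WT ISCs and 0 for the ISC-Cre interaction. With total counts it was 5 for WT organoids against WT ISCs, 0 for duodenal against WT ISCs, 1 for duodenal against Sec-Cre ISCs, 1 for the Sec-Cre interaction and 0 for the ISC-Cre interaction. With no filter it was 1 for Sec-Cre against WT ISCs, 1 for the Sec-Cre interaction and 0 for the ISC-Cre interaction. With DESeq2 it was 2 for Sec-Cre against WT ISCs, 4 for duodenal against WT ISCs, 1 for the Sec-Cre interaction and 2 for the ISC-Cre interaction. With only the groups compared it was 3 for Sec-Cre against WT organoids and 1 for the Sec-Cre interaction. In 1 fit of all 13 libraries it was 1 for Sec-Cre and 3 for ISC-Cre against WT organoids, 2 for Sec-Cre and 4 for duodenal against WT ISCs. Without the 2 libraries that stood apart it was 5, 4 and 5 in the ISC comparisons (Sec-Cre against WT, duodenal against WT, duodenal against Sec-Cre), and 4 and 2 for the Sec-Cre and ISC-Cre interactions. Calls over all genes moved as well, in these fits and in those that left out 1 library (ranges below). Whether the moves are particular to the members was not tested, and neither was their cause.

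Leaving out 1 library at a time gave 9 to 10 members for organoids against ISCs over the mean of the 3 pairs, 9 in Sec-Cre, 4 to 7 in ISC-Cre and 5 to 9 in WT samples. It gave 0 to 5 for Sec-Cre and 1 to 5 for ISC-Cre against WT organoids, and 0 for Sec-Cre against ISC-Cre organoids. It gave 0 to 2 for Sec-Cre and 0 to 3 for duodenal against WT ISCs, 3 to 5 for duodenal against Sec-Cre ISCs, 1 to 4 for the Sec-Cre interaction and 0 to 1 for the ISC-Cre interaction. A group left with 1 library was assumed to vary like the others.

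Genes called over the whole table ranged more: 4788 to 8323 around 6073 for the mean of the 3 pairs, 610 to 3808 around 1845 in ISC-Cre and 162 to 2121 around 589 in WT samples for organoids against ISCs. They ranged from 2477 to 5441 around 4684 and from 2997 to 5996 around 5377 for Sec-Cre and ISC-Cre against WT organoids, and from 0 to 72 around 6 between the Apc-null organoids. For ISCs they ranged from 153 to 6207 around 2417 (Sec-Cre against WT), 937 to 6127 around 2783 (duodenal against WT) and 4091 to 8206 around 5950 (duodenal against Sec-Cre). For the interactions the ranges were 2513 to 6661 around 4013 (Sec-Cre) and 287 to 2267 around 768 (ISC-Cre). Total counts in place of TMM changed the share of calls that were higher to 72.5%, with 51.7% under TMM, for the mean of the 3 pairs, to 80.0% with 53.8% in Sec-Cre samples, to 64.6% with 50.5% and 66.4% with 51.1% for Sec-Cre and ISC-Cre against WT organoids. For ISCs it changed to 21.9% with 58.0% (Sec-Cre against WT), 64.3% with 53.7% (duodenal against WT) and 81.0% with 51.4% (duodenal against Sec-Cre), and to 80.0% with 50.8% for the Sec-Cre interaction. The median over all genes moved with it, to 1.01 with 0.16 under TMM in Sec-Cre organoids against ISCs, 0.21 with 0.05 for Sec-Cre against WT organoids, -0.71 with 0.00 for Sec-Cre against WT ISCs and 0.98 with 0.12 for duodenal against Sec-Cre ISCs. The low depth of Fosb in organoids and Fosl1 in all libraries limits their folds.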
